A study of Mus musculus with 8 samples.

Results

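The mitochondrial genome of the mouse was represented in these heart libraries by 35 of the 49315 genes counted, the genes whose first chromosome entry in the deposited tables is MT. They comprise 13 protein genes and 22 tRNA genes. The 2 mitochondrial ribosomal RNA genes, mt-Rnr1 and mt-Rnr2, are not analysed here. RNA sequencing was carried out on hearts of C57BL/6 mice, a standard inbred strain, aged 8 weeks, with 4 libraries from females and 4 from males. The comparison addressed is that of adult male and female hearts, and no treatment or engineered allele is named in the labels. The labels do not say whether each library came from its own animal, so p-values measure the spread between these libraries, and replicates are named by their label numbers (female 1 to 4, male 1 to 4).

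Mitochondrial DNA is a compact circle that is read from both strands into long precursor RNAs. Most genes, among them all protein genes but mt-Nd6, are listed on the plus strand of the reference and are conventionally called heavy-strand genes, and the remainder are light-strand genes. In the usual model the tRNAs lie between the other genes like punctuation, and their excision frees the messenger RNAs, which then receive short poly-A tails. The proteins are subunits of the respiratory chain and of ATP synthase, on which the continuously working heart muscle depends. Of the 35 genes, 26 were heavy-strand genes (12 protein, 14 tRNA) and 9 were light-strand genes (mt-Nd6 and 8 tRNA). Library construction used Illumina's TruSeq RNA Sample Prep Kit, and the strand setting of the counting is not given in the sources used here. Reads from the 2 strands of the same stretch therefore cannot be told apart, and neither can a mature tRNA and the same bases within a longer RNA.

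The female libraries had 32746054 to 35467832 counts and the male libraries 39612848 to 47097765, without overlap. With all libraries thinned to the smallest total, 14 mitochondrial genes were called higher in males, the same number as in the full data described below. Over all genes tested, 3.79% were called different between the sexes and 19.5% had an unadjusted p below 0.05, by the test given below. Of 10 cardiomyocyte markers such as Myh6 and Tnnt2, 0 were called and 2 had an unadjusted p below 0.05 (Mb and Myl3, both higher in males). The log2 fold change was positive in 4 of the 10. Their summed level overlapped between the sexes (115792 to 117423 CPM in females, 110365 to 119614 in males). White adipocyte markers were lower in males, 6 of 7 by the test, and so were 2 of 5 brown adipocyte markers and 1 of 6 fibroblast markers (Lum), while 1 of 6 endothelial markers (Tie1) and 1 of 3 tested skeletal muscle markers (Acta1, of 5 listed) were higher and 0 of 6 macrophage and 0 of 5 red cell markers were called. When 1 library was omitted, the Tie1 call held in 1 of 8 fits and that of Acta1 in 3 of 8. The other endothelial markers did not share the Tie1 call. Of the 6, 3 had positive log2 fold changes, with a median of -0.01. Kdr (-0.26, adjusted p = 0.062), Tek (-0.11, adjusted p = 0.16) and Emcn (-0.06, adjusted p = 0.59) were negative. The other skeletal muscle markers did not share the Acta1 call. Myh4 and Myh1 were at or under 0.218 CPM in every library and were not tested. Tnnt3 (log2 fold change -0.71, adjusted p = 0.15) and Ckm (0.15, adjusted p = 0.063) were not called. The 6 called white adipocyte markers had log2 fold changes from -1.84 (Cfd) to -3.04 (Lep), and their summed level was 69.8 to 129 CPM in females and 13.1 to 39.3 CPM in males. With Fabp4, which made up most of the list and was not called (adjusted p = 0.30), the sum was 573 to 682 CPM in females and 484 to 556 in males, with no defining marker at 0. Summed macrophage markers were at 282 to 366 CPM in females and 330 to 613 in males, with male 1 the highest. Red cell markers varied widely within each sex, from 556 (female 2) to 8805 CPM (female 4) in females and from 2518 to 7630 in males. The part of all these markers in the results below was not tested. CPM is the number of counts scaled to a common library size, with TMM factors. Levels of different genes are compared only as CPM per kb of gene length. Each log2 fold change gives males minus females, with a standard error (SE), by the edgeR quasi-likelihood test with Benjamini-Hochberg adjustment over 16180 genes, and a gene is called changed at an adjusted p below 0.05.

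Mitochondrially encoded genes were called higher in male hearts in both the protein and the tRNA class. Of 32 mitochondrial genes tested, 14 were higher in males and 0 in females, where 2.03% of all genes tested were called higher in males and 3.79% in either direction. By class, 9 of 13 protein genes and 5 of 19 tested tRNA genes were called. The log2 fold change was positive in 31 of the 32, with a median of 0.35, against positive values in 49.7% and a median of -0.0007 over all genes tested. In 18 of the 32 every male library exceeded every female one, as in 6.39% of all genes tested. The count of 14 fell to 9 without female 1 and to 9 without male 3, that of protein genes to 5 without male 3 and that of tRNA genes to 3 without female 1. In bulk tissue, more cells of a type and more RNA per cell cannot be told apart.

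Summed over the 35 genes, mitochondrial counts made up 10.6, 11.4, 9.96 and 11.03% of all counts in females 1 to 4 and 12.1, 12.5, 12.1 and 12.2% in males 1 to 4. The lowest male share lay above the highest female share, and the female libraries spread more widely (SD 0.616 against 0.196 percentage points). Protein genes held nearly all of it, 104811 ± 6208 CPM in females and 124104 ± 1426 in males (SD, n = 4 each). The tRNA genes held 623 ± 25.7 and 796 ± 42.6 CPM. Within the mitochondrial counts the tRNA share was 0.577% to 0.610% in females and 0.605% to 0.674% in males, and these ranges overlapped. The light-strand genes held 2.16% to 2.48% and 2.27% to 2.44% of mitochondrial counts, again with overlap. No test was made of these sums over members. The sums and shares cover counted reads only. How reads that fit both a mitochondrial and a nuclear gene were counted is not given in the sources used here. The adjacent protein genes from mt-Co2 to mt-Nd4l, described below, summed to only 36.6 to 47.9 CPM in females and 55.5 to 58.1 in males. If such reads were left uncounted, the mitochondrial share could be too low and the tRNA and light-strand shares too high, which was not tested.

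**Figure D1:**
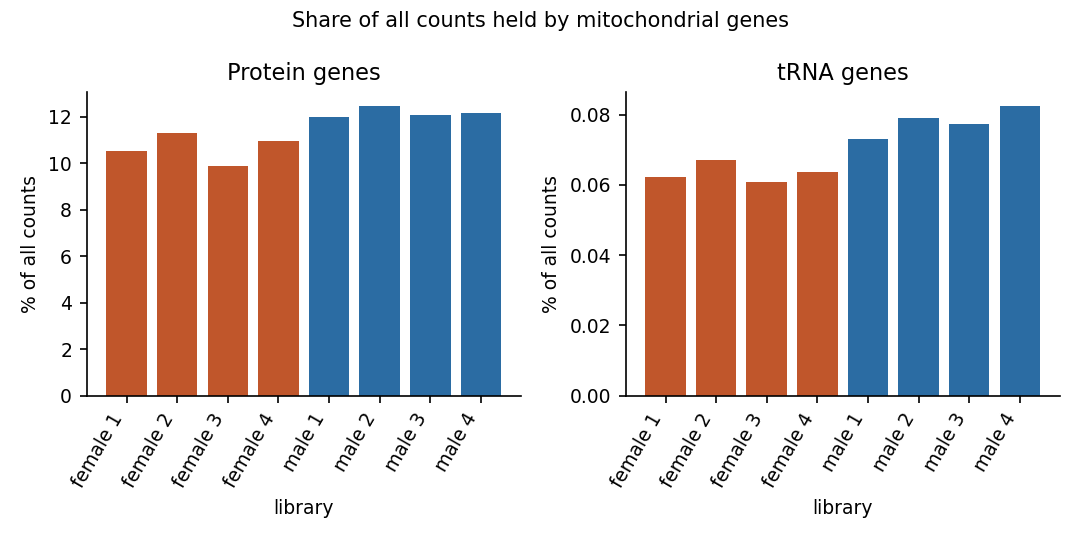
Share of all counts held by the 13 protein genes (left, %) and the 22 tRNA genes (right, %) in each library, 1 bar per library, females in orange and males in blue, both axes from 0. In both classes the 4 male bars lie above the 4 female bars, and the scale of the tRNA panel is far smaller, with a highest share of 0.0824%.

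Among the protein genes, levels fell into 2 sets that did not meet. Per kb of counted reads, mt-Co1 was the highest at 31609 CPM per kb (mean of 8 libraries), followed by mt-Cytb (20397), mt-Nd1 (13851), mt-Nd2 (8415), mt-Nd5 (5705), mt-Nd4 (5565) and mt-Nd6 (4184). The neighbours mt-Nd5 and mt-Nd4 in this order changed places between libraries, with an mt-Nd4 to mt-Nd5 ratio per kb of 0.864 to 1.04. The other 6 protein genes, mt-Co2, mt-Atp8, mt-Atp6, mt-Co3, mt-Nd3 and mt-Nd4l, lay between 11.6 (mt-Nd4l) and 36.4 CPM per kb (mt-Nd3). All 6 sit side by side on the genome, between mt-Co1 and mt-Nd4.

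**Figure D2:**
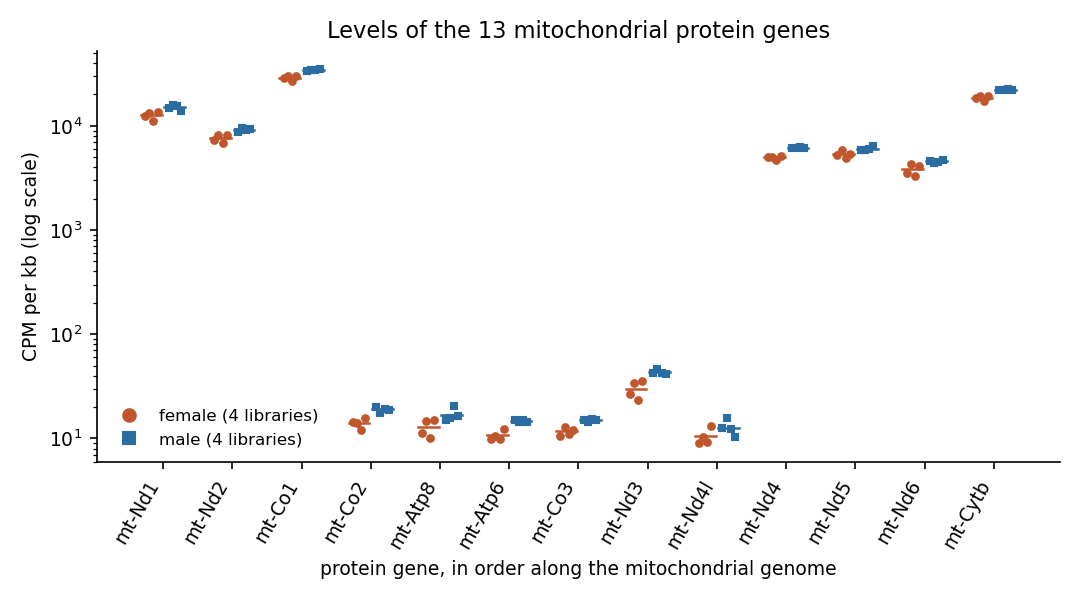
CPM per kb (log scale) of the 13 protein genes in genome order, with 1 point per library (orange circles, 4 females; blue squares, 4 males) and a line at each mean. The 6 genes from mt-Co2 to mt-Nd4l lie between 11.6 and 36.4 CPM per kb on average, and the other 7 at 4184 or more.

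That stretch has a nuclear copy. Chromosome 1 of GRCm38 carries 7 pseudogenes on its minus strand, from 24611535 to 24616197, which line up with mitochondrial genes in the same order. In the GENCODE M21 transcript models, Gm28661 matched mt-Co2, Gm10925 matched mt-Atp6, Gm28437 matched mt-Co3, Gm10222 matched mt-Nd4l and Gm28439 matched the first 876 bases of mt-Nd4, each without a differing base. Gm28438 differed from mt-Nd3 at 1 of 345 bases and Gm29216 from mt-Co1 at 6 of 492. The bases between Gm28661 and Gm10925 number 233, the same as between those positions of the mitochondrial genome, where mt-Tk and most of mt-Atp8 lie. The gap between Gm29216 and Gm28661 is likewise 140 bases in both, and holds mt-Ts1 and mt-Td on the mitochondrial side. Between Gm28438 and Gm10222 the copy has 74 bases against 73 in the mitochondrial genome, where mt-Tr lies. The sequences below show how little separates the copy from the original: the 60 bases of each pair around their differences are printed 5′ to 3′ from GENCODE M21 on GRCm38, with the differing bases in capitals.
mt-Nd3 (MT:9459-9518, plus strand): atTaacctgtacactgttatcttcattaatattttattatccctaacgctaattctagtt
Gm28438 (chr1:24613060-24613119, minus strand): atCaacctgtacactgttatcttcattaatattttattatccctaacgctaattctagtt
mt-Co1 (MT:6381-6440, plus strand): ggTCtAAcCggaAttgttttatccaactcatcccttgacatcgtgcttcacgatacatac
Gm29216 (chr1:24616138-24616197, minus strand): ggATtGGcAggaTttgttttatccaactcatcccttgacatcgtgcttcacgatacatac

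Of the 50-base stretches of each gene, 99.5% in mt-Co2, 99.5% in mt-Atp6, 99.9% in mt-Co3, 98.0% in mt-Nd3 and 98.8% in mt-Nd4l also occurred in these chromosome 1 models. The share was 62.2% in mt-Nd4 and 28.7% in mt-Co1, and 0% in mt-Nd1, mt-Nd2, mt-Nd5, mt-Nd6 and mt-Cytb. Counting every nuclear transcript model in place of the chromosome 1 copy alone, the share was 51.1% in mt-Co1 (with Gm13340 holding the most beyond the copy), 8.2% in mt-Nd2 (Gm13339) and 7.6% in mt-Nd5 (most in Gm4076), and stayed at 0% in mt-Nd1, mt-Nd6 and mt-Cytb. The chromosome 1 share was also 0% in mt-Atp8, which no pseudogene model covers beyond its 43-base overlap with mt-Atp6. The 5 genes with a share of at least 98.0%, and mt-Atp8, are the 6 protein genes of low level. How reads that fit both places were counted is not given in the sources used here, so the levels of these 6 genes are uncertain. The same limit applies in part to mt-Co1 and mt-Nd4, and to a lesser share of bases in mt-Nd2 and mt-Nd5, and so to their place in the order of levels and to ratios that contain them. The part of nuclear copies in any of these levels was not tested. The 7 pseudogenes had 19 to 792 counts per library, 2 of them were called higher in males (Gm28437, 0.30, adjusted p = 0.047; Gm29216, 0.35, adjusted p = 0.014) and all 7 fold changes were positive, with a median log2 fold change of 0.33. With the counts of each pseudogene added to the gene it matches, an alternative chosen after the data were seen, 14 mitochondrial genes were again called. Such an addition cannot bring back reads left uncounted for fitting both places, so it does not settle that limit.

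**Figure D3:**
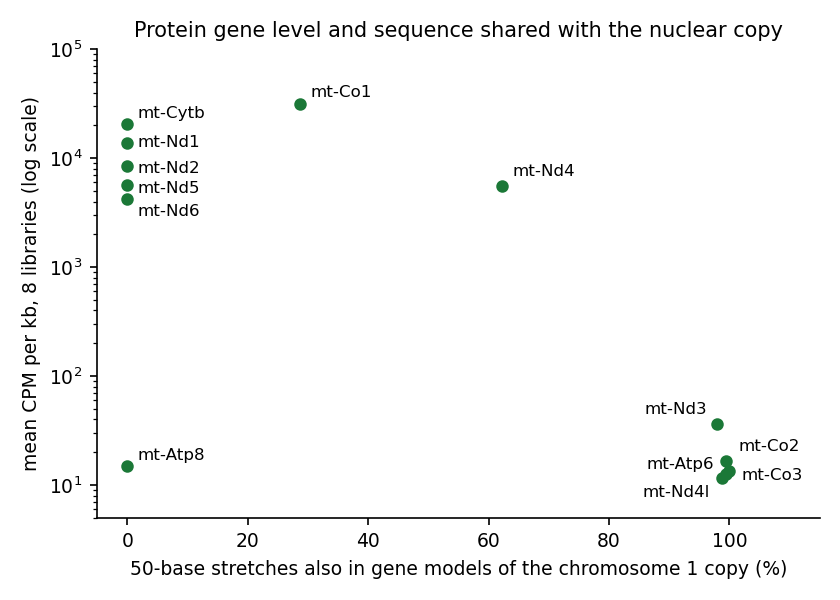
Mean CPM per kb over the 8 libraries (log scale) of the 13 protein genes against the share of their 50-base stretches found in the gene models of the chromosome 1 copy (%), 1 point per gene. The 5 genes at 98.0% or more lie at or below 36.4 CPM per kb, as does mt-Atp8 at 0%, where the models have a gap, and the other 7 genes lie at 4184 or above.

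Respiratory complex I had 7 mitochondrial genes, and 4 of them rose. The gene mt-Nd4 (MT:10167-11544), a proton-pumping membrane subunit, had the smallest p of all protein genes, with 6958, 6958, 6537 and 7068 CPM in females 1 to 4 and 8362, 8418, 8547 and 8505 CPM in males 1 to 4. The males lay close together and above every female (log2 fold change 0.30, SE 0.03, adjusted p = 0.00075), and the call held whichever of the 8 libraries was omitted. The next protein gene on the heavy strand, mt-Nd5, encodes another pumping subunit and, had 9657, 10658, 9006 and 9715 CPM in females 1 to 4 and 10802, 10681, 10933 and 11796 CPM in males 1 to 4. The highest female and the lowest male nearly met, and the gene was not called (log2 fold change 0.18, SE 0.05, adjusted p = 0.076, and 0.032 without female 2). It passed the threshold without a filter on low counts (adjusted p = 0.044) and by DESeq2 (0.014). The membrane-arm gene mt-Nd2 had 7669, 8536, 7030.2 and 8561 CPM in females 1 to 4 and 9109, 9913, 9398 and 9663 CPM in males 1 to 4. Female 3 was the lowest library here, and the groups were apart (log2 fold change 0.26, SE 0.06, adjusted p = 0.034). For mt-Nd1, which encodes a subunit near the quinone site, the values were 11977, 12772, 10727 and 13032 CPM in females 1 to 4 and 14295, 15079, 14796 and 13365 CPM in males 1 to 4. The ranges did not overlap, though male 4 lay close to female 4 (log2 fold change 0.25, SE 0.06, adjusted p = 0.043). The calls of mt-Nd1 and mt-Nd2 were lost in 6 and 5 of the 8 fits that omit 1 library, the highest adjusted p being 0.11 for mt-Nd1 without male 3 and 0.086 for mt-Nd2 without female 1. Both were also lost in limma on the deposited normalized values (adjusted p = 0.094 and 0.066).

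The light strand contributed mt-Nd6, the one protein gene encoded there and also a complex I subunit, which overlaps mt-Nd5 by 14 bases at its end. Its levels were 1819, 2254, 1724 and 2132 CPM in females 1 to 4 and 2376, 2301, 2333 and 2435 CPM in males 1 to 4. Every male exceeded every female, yet females 2 and 4 lay close below the males, and the gene was not called (log2 fold change 0.25, SE 0.07, adjusted p = 0.085, and 0.032 without female 2). It passed the threshold without a filter on low counts (adjusted p = 0.014) and by DESeq2 (0.0092). Among the complex I genes of uncertain level, mt-Nd3 had 9.24, 11.8, 8.05 and 12.3 CPM in females 1 to 4 and 14.7, 16.03, 14.7 and 14.4 CPM in males 1 to 4, with the groups apart (log2 fold change 0.53, SE 0.12, adjusted p = 0.029). The small membrane subunit gene mt-Nd4l had 2.66, 3.07, 2.76 and 3.91 CPM in females 1 to 4 and 3.74, 4.64, 3.68 and 3.06 CPM in males 1 to 4. Female 4 lay above 3 of the 4 males, and the gene was not called (log2 fold change 0.28, SE 0.15, adjusted p = 0.34). The call of mt-Nd3 was lost without female 1, male 2 or male 3, with adjusted p of 0.067 to 0.08.

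Cytochrome b of complex III and the catalytic subunit of complex IV had the 2 highest levels per kb, and both rose. The cytochrome b gene mt-Cytb (MT:14145-15288) had 21159.6, 22292, 19936 and 22023 CPM in females 1 to 4 and 25024, 25259, 25727 and 25254 CPM in males 1 to 4. The males kept within a narrow band above the females (log2 fold change 0.25, SE 0.04, adjusted p = 0.005, 1.19-fold). The gene mt-Co1 (MT:5328-6872), which encodes the subunit where oxygen is reduced, had 44631, 46595, 41409 and 46240.1 CPM in females 1 to 4 and 51967, 53369.9, 52731 and 53748 CPM in males 1 to 4. Again the groups were apart, with female 3 the lowest (log2 fold change 0.24, SE 0.04, adjusted p = 0.0059, 1.18-fold). Both calls held whichever of the 8 libraries was omitted and were lost in limma on the deposited normalized values (adjusted p = 0.071 and 0.13). The other complex IV genes, both of uncertain level, also rose. The gene mt-Co2, for the subunit that takes up electrons from cytochrome c, had 9.72, 9.54, 8.30 and 10.7 CPM in females 1 to 4 and 13.8, 12.1, 13.2 and 12.9 CPM in males 1 to 4. All males were above all females (log2 fold change 0.45, SE 0.08, adjusted p = 0.011). The structural core subunit gene mt-Co3 had 8.33, 10.1, 8.74 and 9.49 CPM in females 1 to 4 and 11.8, 11.3, 12.1 and 11.9 CPM in males 1 to 4, again with the groups apart (log2 fold change 0.36, SE 0.07, adjusted p = 0.017, and 0.052 without male 3).

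The ATP synthase genes mt-Atp6 and mt-Atp8 encode membrane subunits, lie within the same stretch and overlap each other by 43 bases. For mt-Atp6, part of the proton channel, the levels were 6.70, 7.13, 6.75 and 8.48 CPM in females 1 to 4 and 10.2, 9.87, 10.3 and 9.86 CPM in males 1 to 4. The males were above the females and within a narrow band (log2 fold change 0.47, SE 0.08, adjusted p = 0.011), and the call held whichever of the 8 libraries was omitted, as did that of mt-Co2. For mt-Atp8 the levels were 2.29, 2.99, 2.04 and 3.07 CPM in females 1 to 4 and 3.06, 3.196, 4.15 and 3.38 CPM in males 1 to 4. Male 1 lay just below female 4, and the gene was not called (log2 fold change 0.41, SE 0.15, adjusted p = 0.17).

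Over the 7 genes outside the stretch of low level, the fold change ran from 1.13 (mt-Nd5) to 1.23 (mt-Nd4), with a median log2 fold change of 0.25, and all 7 had every male above every female. Over the 6 genes of the stretch the median was 0.43, on counts of 74 to 658 per library, and 4 of 6 had groups apart. Female 3 was the lowest of all 8 libraries in 10 of 13 protein genes and female 1 in the other 3. No male library took that place in any of the 13.

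Ratios between genes within a library, which no scaling of libraries changes, were compared between the sexes for 4 pairs, and no difference passed the threshold (exact two-sided permutation test of log2 ratios, 4 against 4, smallest possible p = 0.029, adjusted over the 4). The mt-Co1 to mt-Cytb ratio per kb was 1.55 ± 0.0102 in females and 1.55 ± 0.0263 in males (exact p = 0.91, adjusted p = 0.91), and the mt-Nd2 to mt-Nd1 ratio was 0.604 ± 0.0106 in females and 0.611 ± 0.0379 in males (exact p = 0.91, adjusted p = 0.91). The pair on opposite strands, mt-Nd6 to mt-Nd5, stood at 0.712 ± 0.0533 in females and 0.751 ± 0.0198 in males (exact p = 0.26, adjusted p = 0.51). For mt-Nd4 to mt-Nd5 the ratio was 0.935 ± 0.0477 in females and 1.01 ± 0.0407 in males (exact p = 0.086, adjusted p = 0.34), with male 4 inside the female range. All 4 pairs contain a gene that shares bases with nuclear transcripts. Ratios with the ribosomal RNAs are not analysed here, and at 4 libraries a sex a p above the threshold does not show that the ratios were equal.

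The tRNA class, which held far fewer counts than the protein class on far shorter genes, also held genes called higher in males and none called lower. Mitochondrial tRNAs decode the 13 messages on the mitochondrial ribosome and are shorter than their cytosolic counterparts. The 5 that were called higher in males are printed first, as the genes the class result rests on, followed by the 2 with the highest level among those not called. Sequences are the DNA sense strand of each gene from GENCODE M21 on GRCm38, 5′ to 3′, with the anticodon in capitals.
mt-Tl1 (MT:2676-2750, plus strand): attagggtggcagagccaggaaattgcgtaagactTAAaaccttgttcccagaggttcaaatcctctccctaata
mt-Ti (MT:3706-3774, plus strand): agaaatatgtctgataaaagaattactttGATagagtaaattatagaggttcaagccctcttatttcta
mt-Tq (MT:3772-3842, minus strand): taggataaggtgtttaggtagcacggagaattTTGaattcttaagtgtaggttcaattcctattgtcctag
mt-Tw (MT:4950-5016, plus strand): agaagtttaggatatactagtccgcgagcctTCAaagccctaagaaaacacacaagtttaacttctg
mt-Tp (MT:15356-15422, minus strand): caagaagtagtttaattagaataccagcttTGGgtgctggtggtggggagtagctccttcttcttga
mt-Ta (MT:5018-5086, minus strand): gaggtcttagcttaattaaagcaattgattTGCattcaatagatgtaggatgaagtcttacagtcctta
mt-Tn (MT:5089-5159, minus strand): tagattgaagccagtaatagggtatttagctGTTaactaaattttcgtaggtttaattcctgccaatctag

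Of the called genes, mt-Ti and mt-Tq, for isoleucine and glutamine, lie on opposite strands and share 3 bases at their 3′ ends. The glutamine gene mt-Tq had the smallest p of all mitochondrial genes, with 32.5, 29.4, 31.4 and 32.4 CPM in females 1 to 4 and 41.01, 45.6, 46.8 and 48.2 CPM in males 1 to 4. The females were tightly grouped and well below the males (log2 fold change 0.53, SE 0.05, adjusted p = 0.00041, 1.45-fold). For mt-Ti the values were 18.96, 22.9, 21.2 and 25.7 CPM in females 1 to 4 and 34.8, 37.7, 34.4 and 32.4 CPM in males 1 to 4. This was the largest fold change among the 14 called genes (log2 fold change 0.65, SE 0.08, adjusted p = 0.0015, 1.57-fold). One of the 2 leucine tRNA genes, mt-Tl1, which lies between mt-Rnr2 and mt-Nd1, had 57.04, 46.9, 49.4 and 54.97 CPM in females 1 to 4 and 67.7, 77.9, 72.2 and 71.5 CPM in males 1 to 4. Its groups were apart too (log2 fold change 0.47, SE 0.06, adjusted p = 0.0025, 1.39-fold). These 3 calls held whichever of the 8 libraries was omitted. The 3 genes stand on either side of mt-Nd1, whose own fold change was 1.19.

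The tryptophan gene mt-Tw, next to mt-Nd2, had 11.2, 10.8, 12.5 and 11.7 CPM in females 1 to 4 and 14.3, 13.4, 16.01 and 15.6 CPM in males 1 to 4, with no overlap (log2 fold change 0.36, SE 0.07, adjusted p = 0.019). Its call was lost without female 1, female 2 or male 3 (adjusted p = 0.052 to 0.057). The light-strand proline gene mt-Tp, beside the control region, had 86.4, 103, 87.9 and 98.4 CPM in females 1 to 4 and 125, 139, 125 and 107 CPM in males 1 to 4. Male 4 was the lowest male and lay just above female 2 (log2 fold change 0.40, SE 0.08, adjusted p = 0.018), and the call was lost without female 1 (0.052) or female 3 (0.054).

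The cluster of light-strand tRNA genes between mt-Nd2 and mt-Co1, mt-Ta, mt-Tn, mt-Tc and mt-Ty for alanine, asparagine, cysteine and tyrosine, had 0 of its 4 genes called. The 32 bases between mt-Tn and mt-Tc correspond to the place where replication of the light strand is known to start. The alanine gene mt-Ta had 106, 99.04, 98.9 and 97.2 CPM in females 1 to 4 and 108, 111, 124 and 148 CPM in males 1 to 4. The asparagine gene mt-Tn had 109, 139, 111 and 113 CPM in females 1 to 4 and 123, 120.4, 130.2 and 171 CPM in males 1 to 4. Female 2 lay above 3 of the 4 males for mt-Tn, while for mt-Ta the groups were apart. The cysteine gene mt-Tc had 62.96, 69.8, 63.4 and 61.7 CPM in females 1 to 4 and 74.6, 71.8, 78.5 and 99.4 CPM in males 1 to 4, also with no overlap. In all 4 genes male 4 was the highest of the 8 libraries, and the log2 fold changes were 0.29 for mt-Ta (SE 0.08, adjusted p = 0.081), 0.21 for mt-Tn (adjusted p = 0.32), 0.33 for mt-Tc (adjusted p = 0.066) and 0.46 for mt-Ty (adjusted p = 0.16). The cysteine gene passed the threshold without male 2 and without male 4 (0.047 each), and the alanine gene without male 1 (0.042). Both also passed it without a filter on low counts (0.0041 and 0.0085) and by DESeq2 (0.0045 and 0.0104). The tyrosine gene mt-Ty passed it only without a filter (0.036). The summed level of the 4 genes was 287, 322, 284 and 285 CPM in females 1 to 4 and 321, 317, 348 and 439.9 CPM in males 1 to 4, so that males 1 and 2 lay within the female range.

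Male 4 stood at the other end of the males for the light-strand glutamate gene mt-Te, named here, as was mt-Ty, after its values were seen. It had 30.7, 37.6, 25.6 and 36.5 CPM in females 1 to 4 and 48.5, 59.4, 51.8 and 34.1 CPM in males 1 to 4. With this library inside the female range the gene was not called (log2 fold change 0.57, SE 0.15, adjusted p = 0.07), and without it the adjusted p was 0.011. With all 8 libraries but no filter on low counts the adjusted p was 0.0015. The methionine gene mt-Tm, which follows mt-Tq, had 75.03, 56.8, 62.7 and 66.3 CPM in females 1 to 4 and 67.3, 79.4, 77.7 and 73.4 CPM in males 1 to 4. Female 1 lay among the males, the groups overlapped and the gene was not called (log2 fold change 0.19, SE 0.08, adjusted p = 0.2).

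**Figure D4:**
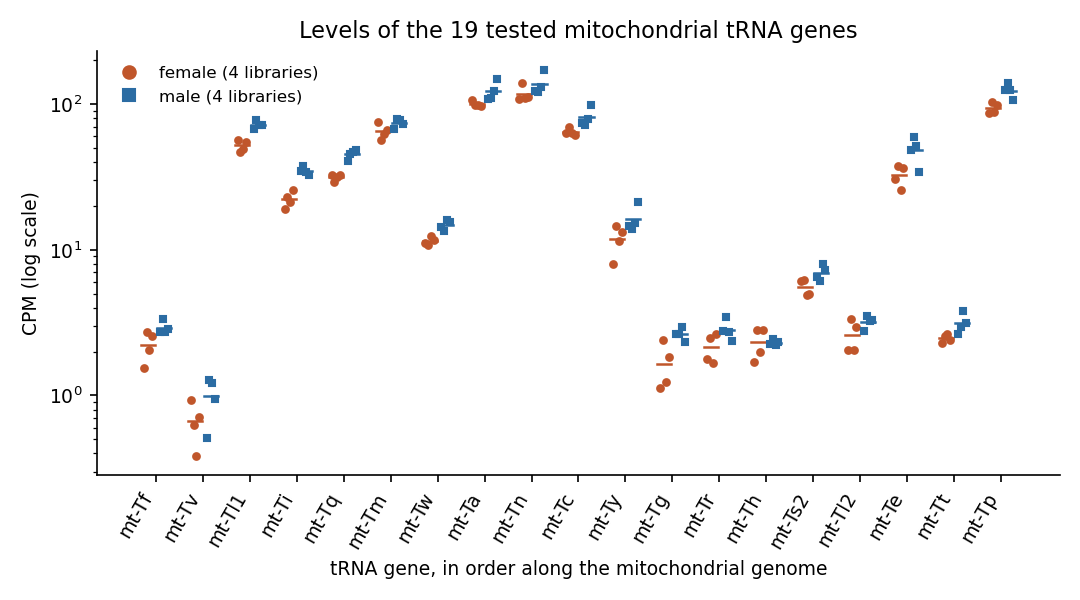
CPM (log scale) of the 19 tested tRNA genes in genome order, with 1 point per library (orange circles, 4 females; blue squares, 4 males) and a line at each mean. Levels ran from 0.386 to 171 CPM, and male 4 is the highest point of mt-Ta, mt-Tn, mt-Tc and mt-Ty.

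Levels of tRNA genes differed widely among themselves. How reads that span neighbouring genes were counted is not given in the sources used here, which limits these levels and their order. Per kb, the order was led by mt-Tn (1790.3 CPM per kb), mt-Tp (1626), mt-Ta (1616) and mt-Tc (1103), all light-strand genes, ahead of the heavy-strand genes mt-Tm (1012) and mt-Tl1 (829). The first 3 overlapped in their library values and cannot be ranked among themselves. All 8 tested genes under 10 CPM were heavy-strand genes (mt-Tf, mt-Tv, mt-Tg, mt-Tr, mt-Th, mt-Ts2, mt-Tl2 and mt-Tt), and 0 of them were called, with log2 fold changes from -0.01 (mt-Th) to 0.66 (mt-Tg) on 14 to 340 counts per library. The histidine gene mt-Th was the one member with a negative value (female mean 2.33 ± 0.578 CPM, male mean 2.31 ± 0.101 CPM, adjusted p = 0.98). Of the 11 tested tRNA genes at 10 CPM or more, 5 were called and 7 had groups apart. The part of depth in that contrast between abundant and scarce genes was not tested.

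Of the 22 tRNA genes, 3 were below the count filter and were not tested. The aspartate gene mt-Td and the lysine gene mt-Tk had 0 counts in every library. For counted reads, that allows a level of up to 0.00972 CPM over the 8 libraries (3 counts, counting error only). Reads left uncounted for fitting more than 1 place are not covered by this bound, so it does not show that these RNAs were absent. The serine gene mt-Ts1 had 1 to 14 counts per library, 18 over the females and 36 over the males. All 3 lie in the stretch from mt-Co1 to mt-Nd4 that is matched by the chromosome 1 copy, as do mt-Tg (female mean 1.66 ± 0.599 CPM, male mean 2.63 ± 0.252 CPM, log2 fold change 0.66, SE 0.21, adjusted p = 0.11) and mt-Tr (female mean 2.15 ± 0.487 CPM, male mean 2.83 ± 0.461 CPM, log2 fold change 0.40, SE 0.17, adjusted p = 0.23). All 5 tRNA genes of that stretch were at or under 3.48 CPM in every library. Such levels were not particular to it. Outside it, mt-Tv reached at most 1.27 CPM, mt-Th 2.84 CPM and mt-Tf 3.32 CPM. No pseudogene model covers the copy's counterparts of these tRNA genes, so their shared bases were not compared.

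By strand, 12 of 24 tested heavy-strand genes and 2 of 8 light-strand genes were called, all higher in males. The median log2 fold change was 0.35 for heavy-strand and 0.36 for light-strand genes. Within the tRNA class it was 0.37 (3 of 12 called) and 0.40 (2 of 7 called). Between the classes it was 0.28 for the protein genes and 0.38 for the tRNA genes, with ranges of 0.18 to 0.53 and -0.01 to 0.66. For the 7 protein genes outside the stretch of low level it was 0.25. Differences between strands and classes were not tested, since genes cut from the same precursors are not independent.

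**Figure D5:**
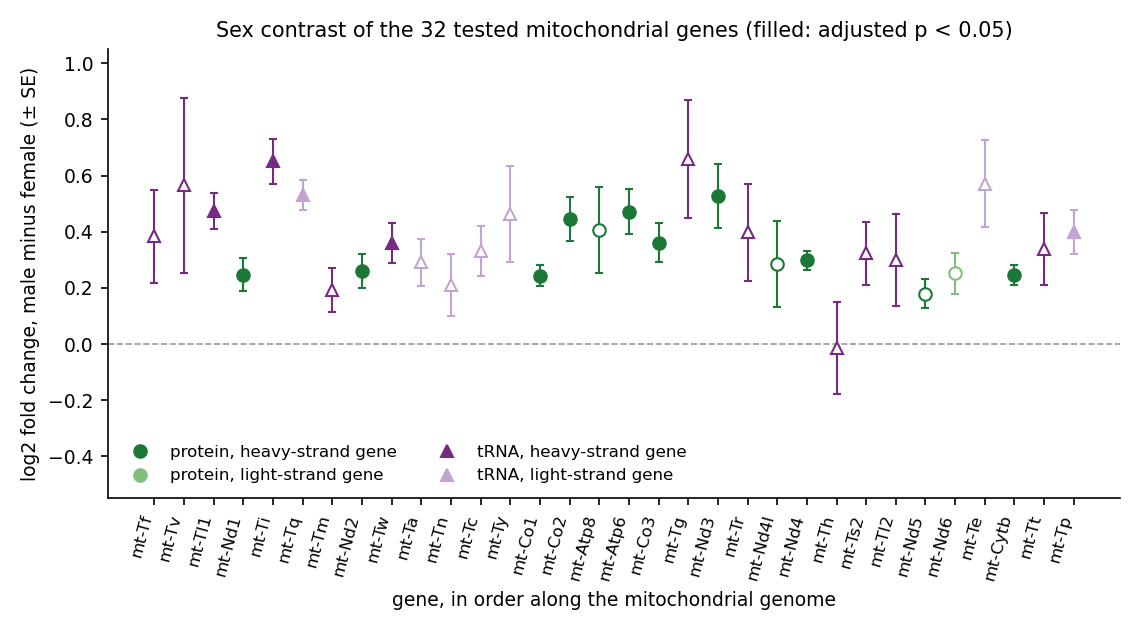
Log2 fold change, male minus female, with its SE for the 32 tested genes in genome order (green circles, protein genes; purple triangles, tRNA genes; dark, heavy strand; pale, light strand; filled, adjusted p below 0.05). All values but that of mt-Th (-0.01) lie above 0, and mt-Nd4 has the smallest error (SE 0.03).

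Of 102 tested nuclear genes in 6 lists of mitochondrial RNA and DNA functions, 2 were called, against 3.79% of all genes tested, and 20 had an unadjusted p below 0.05, against 19.5% of all genes tested. These shares are near or under those of all genes, so the counts are given list by list only as a description. Of 11 transcription genes, among them the polymerase gene Polrmt and the DNA-packaging factor gene Tfam, 0 were called, with a median log2 fold change of 0.02. The smallest p was that of the elongation factor gene Tefm (female mean 16.2 ± 0.145 CPM, male mean 17.9 ± 0.616 CPM, log2 fold change 0.14, SE 0.05, adjusted p = 0.12). Among 34 genes of RNA processing and modification 0 were called (median 0.04), the smallest p being that of Trub2, of the pseudouridine synthase family (0.22, adjusted p = 0.059). The RNA stability and decay list, with Lrpprc and Slirp, had 0 of 9 called (median 0.04), led by the helicase gene Supv3l1 (0.11, adjusted p = 0.17). Of 13 genes of mitochondrial DNA maintenance 0 were called (median -0.02), with the smallest p at Mpv17, an inner membrane protein gene (-0.15, adjusted p = 0.067). At an unadjusted p below 0.05 these 4 lists had 3, 4, 2 and 1 genes.

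Of 22 genes for mitochondrial tRNA synthetases and related enzymes, 2 were higher in males and 0 in females (median 0.04). The leucyl-tRNA synthetase gene Lars2 had 431, 342, 336 and 381 CPM in females 1 to 4 and 461, 478, 462 and 485 CPM in males 1 to 4, with female 1 close to the males (log2 fold change 0.34, SE 0.07, adjusted p = 0.021). The phenylalanyl-tRNA synthetase gene Fars2 stood higher in males as well (female mean 58.02 ± 1.55 CPM, male mean 65.6 ± 2.20 CPM, log2 fold change 0.18, SE 0.04, adjusted p = 0.024). When 1 library was omitted, these calls held in 5 and 4 of 8 fits, the highest adjusted p being 0.061 for Lars2 without female 2 and 0.076 for Fars2 without male 3. Of 13 translation factors 0 were called (median 0.08, 5 at an unadjusted p below 0.05), the smallest p being that of the elongation factor gene Tsfm (0.12, adjusted p = 0.14). Against these medians of -0.02 to 0.08 stood that of 0.28 for the 13 mitochondrially encoded protein genes, 6 of them of uncertain level. For the 7 outside the stretch of low level the median was 0.25. A test of that difference was not made.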

How the data were processed

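RNA sequencing of 8 mouse heart libraries was compared between the sexes, 4 against 4, with groups and replicate numbers taken from the sample titles. The authors deposited raw gene counts, and per the submitters' processing notes Trimmomatic 0.36, STAR 2.5.2b, featureCounts and Subread 1.5.2 were used with GRCm38 (mm10). How strand and reads matching several places were handled is not given in the sources used here. The authors also deposited a normalized signal for 16160 genes, which served in an alternative only. The highest ratio of counts to that signal was 0.863 to 1.196 by library, and whether the ratio was constant over genes was not checked. Mitochondrial genes were those with MT as first chromosome entry. The members and gene lists were chosen with earlier results of these data known. Genes passing edgeR's filterByExpr (minimum count 10, minimum total 15) were tested in edgeR 4.0.16 (R 4.3.3) with TMM scaling and the quasi-likelihood test, male against female, with Benjamini-Hochberg adjustment over 16180 genes and a threshold of 0.05. The test was tried on simulated data first. The common biological coefficient of variation was 0.0814. In CPM, 1 count was worth 0.0218 to 0.0302 with TMM scaling. Full values are given for the protein genes, the called tRNA genes and the 6 tRNA genes of highest mean CPM, and for each pathway list up to 2 called members a direction or, with none called, the member with the smallest p. Shared sequence was sought as identical 50-base stretches between GENCODE M21 transcripts, and 48970 symbols were matched to gene names. Ratios were tested by exact permutation. Alternatives were DESeq2 1.42.0, limma 3.58.1, other scalings and filters, thinned depth, a replicate block, each library left out and, added after seeing the data, the copy's counts joined to their matching genes. The ribosomal RNA genes and the 2 ratios planned with them are not analysed here.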

Additional observations from a re-analysis of the deposited data

Results flagged for a closer look

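Of 54 groups of 4 libraries tested for a value standing far from the other 3, 2 had one, where chance gives about 1 in 20 groups. For the asparagine tRNA gene mt-Tn, female 2 had 139 CPM and the other females 109 to 113 CPM. For the ratio of mt-Nd4 to mt-Nd5 per kb, female 2 had 0.864 and the other females 0.954 to 0.963. Both values belong to the same library.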

How the results depend on the processing

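The direction held for the 22 mitochondrial genes named by the rule (mt-Te and mt-Ty are not among them) under all 19 alternatives, and 380 of the 418 values kept their side of the threshold. The count of 14 called mitochondrial genes was 9 to 15 with a library left out. With 9 called (without female 1, and without male 3) all 9 were among the 14. It was 21 without a filter on low counts, 19 by DESeq2 and 10 by limma on the deposited normalized values. The 9 called protein genes became 5 to 10 with a library left out (5 without male 3) and 5 by that limma fit. The 5 called tRNA genes became 3 to 7 with a library left out (3 without female 1), 10 without a filter and 8 by DESeq2. The cause of these shifts was not tested. The difference in mitochondrial share of counts, 1.51 percentage points, kept its direction whichever library was left out, since the 2 groups did not overlap. Of the 4 ratios, 2 changed the sign of their sex difference, in each case only with a library left out: mt-Nd2 to mt-Nd1 ran from -0.0266 (without male 4) to 0.0357 in log2, and mt-Co1 to mt-Cytb from -0.0100 to 0.0082 (without male 3), with 0.0019 without female 1 and 0.0018 without male 1. Same-numbered libraries did not deviate together (correlations of -0.047 to 0.054), so the numbers were not taken as pairs. With the replicate number as a block, 13 mitochondrial genes were called (8 protein, 5 tRNA), and mt-Nd1 was the call lost (adjusted p = 0.075). Among nuclear genes the block also lost Fars2 (0.055), Tie1 (0.056) and Acta1 (0.058), and Lars2 held (0.032). Other scalings moved the median of all genes by at most 0.0055 in log2. For the 8 tRNA genes under 10 CPM, with 14 to 340 counts per library, no sex difference passed the threshold at this depth, except that mt-Tg passed it without female 2, without a filter and by DESeq2.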
